A study of Mus musculus with 2 samples.

Results

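The matrix metalloproteinases (MMPs) examined here, with the tissue inhibitors of metalloproteinases (TIMPs) that block them, comprised 10 genes: the collagenase genes Mmp13 and Mmp8, the gelatinase genes Mmp9 and Mmp2, the stromelysin genes Mmp3 and Mmp10, the macrophage elastase gene Mmp12, the membrane-type gene Mmp14, and the inhibitor genes Timp1 and Timp2. The genes were chosen with earlier results of these data known, their probes were found by gene symbol in the platform annotation, and they are 10 of the 22180 genes with a symbol of their own on the array. Each was read by 1 probe. The tissue was dorsal skin of female mice of the inbred, dermatitis-prone NC/Nga strain, aged 13 weeks. Both groups received an ointment of Dermatophagoides farinae (house dust mite) body extract for 6 weeks from 6 weeks of age, so both carried induced atopic dermatitis, and skin without mite ointment was not analysed here. The ZAG group also received recombinant zinc-alpha-2-glycoprotein (ZAG), a secreted protein known for mobilising lipid from fat, on the skin at 1 µg/mL for 6 weeks, and the control group did not. The design text names 3 mice in each group, but each group has 1 array, and the sources used here do not say whether an array holds the RNA of 1 mouse or of several.

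MMPs are zinc-dependent endopeptidases that are made as inactive proenzymes and cleave collagens and other matrix proteins outside the cell, as well as some cytokines and receptors. TIMPs bind the active site and so hold the proteases in check, and the balance of both sets how fast matrix is taken apart. In skin, keratinocytes at wound edges, fibroblasts, macrophages and neutrophils each make their own members of the family, and several of these genes are known to be induced by interleukin-1 and by transcription factors of the AP-1 family.

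All 10 genes gave a lower value on the ZAG array than on the control array, where 47.9% of all genes did so. At least 2-fold lower were 4 of the 10 genes (Mmp13, Mmp9, Timp1 and Mmp10), against 0.609% of all genes, and 2 of them (Mmp13 and Mmp9) were at least 4-fold lower, against 0.0947% of all genes. At least 2-fold higher were 0 of the 10, against 0.153% of all genes. These counts have no replicate error behind them: with 1 array per group no test across animals was possible, and a difference describes these 2 arrays. The median log2 difference, ZAG minus control, was -0.83 over the 10 genes and 0.01 over all genes. As a scale for probe error, the log2 difference varied with an SD of 0.244 between probes of the same gene (591 genes with more than 1 probe and a level at or above the median), which does not include differences between mice. The arrays had nearly the same overall level (median log2 values of 3.33 and 3.36). A background gauge was set at a log2 value of 3.16, the 95th percentile of 1390 olfactory and vomeronasal receptor genes, and values below it were raised to it before 2-fold genes were counted. Of the 10 genes, 9 were above the gauge on both arrays and Mmp8 was below it on both. Among the genes above the gauge on either array, 47.5% were lower at any size and 0.961% at least 2-fold lower.

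**Figure D1:**
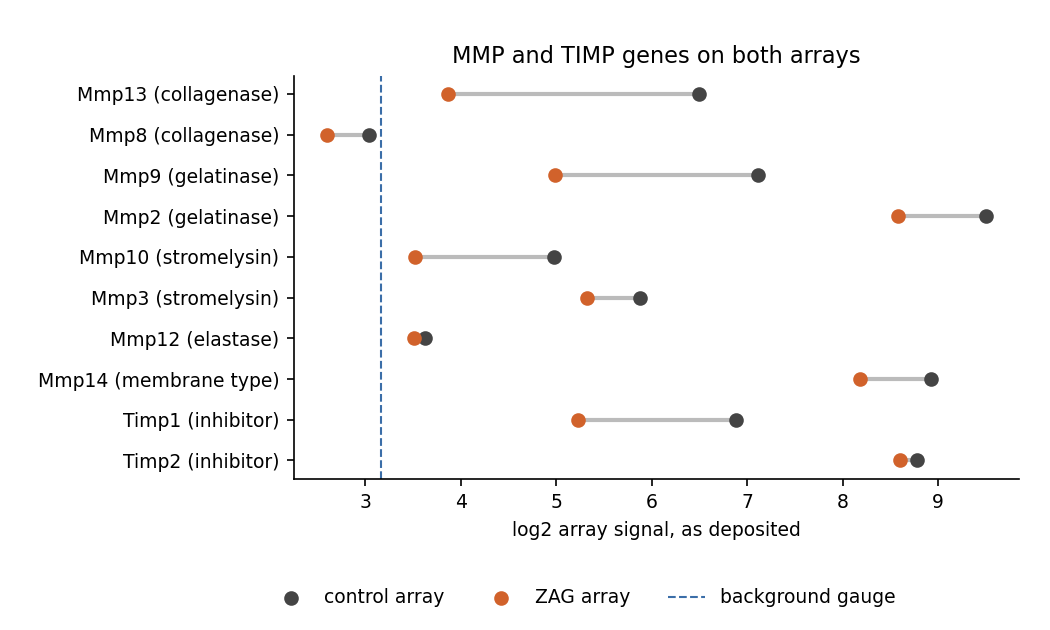
Log2 array signal of each of the 10 genes on the control array (dark points) and the ZAG array (orange points), 1 array per group, with the background gauge of 3.16 as a dashed line. Every orange point lies to the left of its dark point, with the widest gap for Mmp13 (6.50 and 3.87) and the narrowest for Mmp12 (3.63 and 3.51).

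The collagenases cleave the triple helix of fibrillar collagen. Mmp13 (probe 17514482), the main interstitial collagenase of rodents, had a log2 value of 6.50 on the control array and 3.87 on the ZAG array. It was thus well above the gauge in control skin and 0.70 above it in ZAG-treated skin, and the log2 difference of -2.63 (6.21-fold lower) was the 6th lowest of all 22180 genes. Mmp8 (probe 17514553), the collagenase stored in neutrophil granules, was at 3.04 on the control array and 2.60 on the ZAG array. Both values are below the gauge, so no fold is given for it. The bases before the RefSeq transcription start of Mmp13 are shown because they hold a match to the AP-1 motif TGAGTCA, in capitals here and in the sequences of Mmp10, Mmp3 and Mmp12 that follow. They cover chr9:7272394-7272513 of GRCm38.p6, plus strand, and in this gene the match reads on the opposite strand.
Mmp13: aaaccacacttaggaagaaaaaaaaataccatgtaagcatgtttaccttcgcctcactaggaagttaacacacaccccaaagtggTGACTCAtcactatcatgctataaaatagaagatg

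The gelatinases digest denatured collagen and the type IV collagen of basement membranes. Mmp9 (probe 17379606), made by neutrophils, macrophages and activated keratinocytes, had a log2 value of 7.11 on the control array and 4.99 on the ZAG array. The difference of -2.13 (4.36-fold lower) was the 16th lowest of all genes, and both values stayed above the gauge by more than 1. Mmp2 (probe 17503825), the gelatinase that fibroblasts make constitutively, was at 9.50 and 8.58, a log2 difference of -0.92 (1.89-fold lower) that did not reach 2-fold. The difference was larger for Mmp9 than for Mmp2 by 1.21 on the log2 scale. For comparison, the SD between probes of one gene would give 0.345 for such a contrast of 2 genes. No promoter window was held for this pair, so no sequence is shown.

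The stromelysins have broad matrix substrates and activate other proMMPs. Mmp10 (probe 17514541), which is known from migrating keratinocytes at wound edges, had a log2 value of 4.98 on the control array and 3.52 on the ZAG array. The difference was -1.45 (2.74-fold lower), and the ZAG value was only 0.36 above the gauge. With the gauge at the 99th percentile of the receptor genes (4.10), Mmp10 was 1.84-fold lower and no longer among the 2-fold genes. Mmp3 (probe 17514515), the stromelysin of fibroblasts and basal keratinocytes, was at 5.88 and 5.33, a log2 difference of -0.55 (1.47-fold lower). The 2 stromelysin genes thus differed unequally, Mmp10 by 0.90 more on the log2 scale. Mmp12 (probe 17514495), which encodes the elastin-degrading enzyme of macrophages, was at 3.63 and 3.51. Its difference of -0.12 was smaller than the SD between probes, and both values lay within 0.46 of the gauge. That SD comes from genes at or above the median level of 3.87, and the mean level of Mmp12 was 3.57. The upstream bases of these 3 genes are shown for the position of the AP-1 match, at chr9:7502222-7502341 for Mmp10, chr9:7445702-7445821 for Mmp3 and chr9:7347254-7347373 for the second of the starts listed for Mmp12, all GRCm38.p6, plus strand.
Mmp10: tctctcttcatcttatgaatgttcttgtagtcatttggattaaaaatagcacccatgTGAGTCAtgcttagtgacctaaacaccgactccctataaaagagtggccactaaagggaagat
Mmp3: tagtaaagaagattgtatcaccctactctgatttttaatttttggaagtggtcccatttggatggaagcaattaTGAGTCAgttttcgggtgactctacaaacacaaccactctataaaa
Mmp12: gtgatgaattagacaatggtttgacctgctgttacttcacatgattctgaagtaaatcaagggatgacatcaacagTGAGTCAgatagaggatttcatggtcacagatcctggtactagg

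Mmp14 (probe 17300279) encodes a membrane-anchored collagenase of fibroblasts and other stromal cells that activates proMMP2 at the cell surface. Its log2 value was 8.92 on the control array and 8.19 on the ZAG array, a difference of -0.74 (1.67-fold lower). This was within 0.18 of the difference of its substrate gene Mmp2, less than the SD between probes. The upstream bases of Mmp14 (chr14:54431478-54431597, GRCm38.p6, plus strand) are shown as a contrast, since they hold no TGAGTCA and instead 2 adjoining matches to the GC box GGGCGG, in capitals.
Mmp14: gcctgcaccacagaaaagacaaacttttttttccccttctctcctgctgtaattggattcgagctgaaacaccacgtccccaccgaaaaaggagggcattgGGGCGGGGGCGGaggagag

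The inhibitor genes also differed unequally. Timp1 (probe 17533713), the inducible inhibitor that binds proMMP9, had a log2 value of 6.88 on the control array and 5.23 on the ZAG array. The difference of -1.66 (3.15-fold lower) was the 40th lowest of all genes. Timp2 (probe 17272770), the constitutive inhibitor that joins MMP14 and proMMP2 in a complex, was at 8.78 and 8.61, and its difference of -0.17 was smaller than the SD between probes. The contrast between the inhibitors was 1.49 on the log2 scale, with the larger difference in Timp1. The sequences are shown for the GC boxes before both starts, in capitals, and for the AP-1-like letters TGAGTAA after the start of Timp1. They lie at chrX:20870046-20870165 (plus strand) for the bases before the Timp1 start, chrX:20870184-20870206 (plus strand) for the Timp1 site and chr11:118355412-118355531 (minus strand) for Timp2, all GRCm38.p6. The GC box of Timp1 reads on the opposite strand.
Timp1: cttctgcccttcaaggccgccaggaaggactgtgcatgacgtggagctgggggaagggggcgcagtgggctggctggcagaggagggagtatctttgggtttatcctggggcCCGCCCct
Timp1 site: tgggtggaTGAGTAAtgcgtcca
Timp2: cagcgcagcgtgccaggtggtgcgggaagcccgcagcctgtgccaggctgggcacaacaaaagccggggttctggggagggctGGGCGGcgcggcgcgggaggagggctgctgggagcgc

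Set against their inhibitors, the protease genes did not differ by the same amount. Relative to Timp1, the log2 difference was lower by 0.98 for Mmp13 and by 0.47 for Mmp9, nearly the same for Mmp10 (0.20 above that of Timp1) and 1.10 above it for Mmp3. Relative to Timp2, the log2 differences of Mmp2 and Mmp14 were lower by 0.75 and 0.57. Such contrasts compare differences between the arrays and not the levels of the genes, because probes of different genes do not share a scale. Nor do they give enzyme activity, since the arrays read transcripts and MMPs are made as proenzymes.

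**Figure D2:**
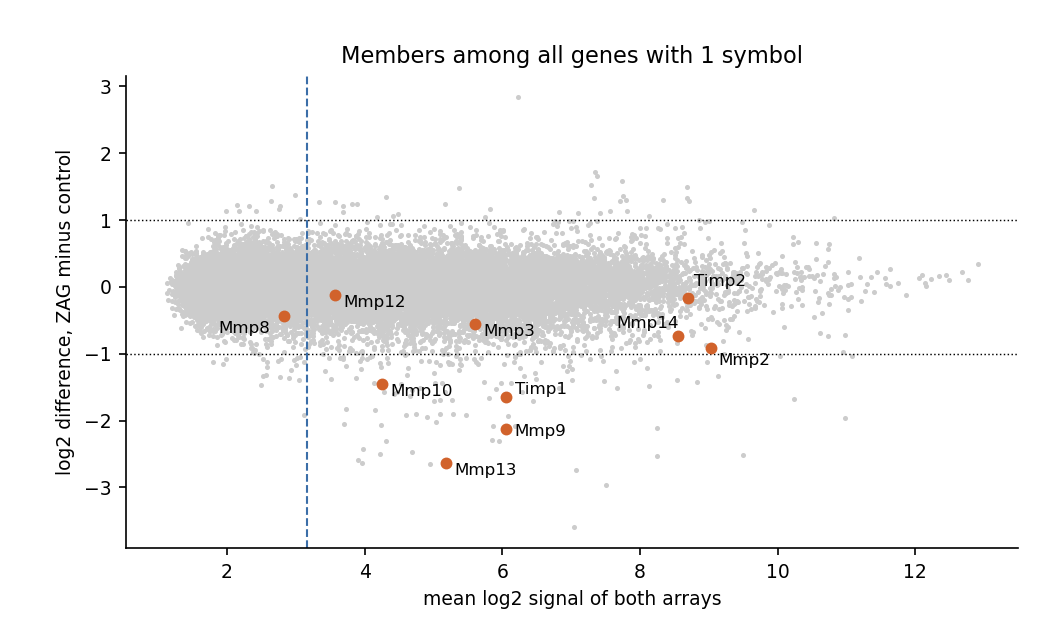
Log2 difference (ZAG minus control) against the mean log2 signal of both arrays for the 22180 genes with a symbol of their own (grey points), with the 10 members in orange, dotted lines at 2-fold and the background gauge as a dashed line. Mmp13, Mmp9, Timp1 and Mmp10 lie below the lower 2-fold line, while Timp2 and Mmp12 lie inside the grey cloud.

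Promoter windows, from 250 bases before to 50 after a RefSeq start, were held for 8 of the 10 genes (9 windows) and not for Mmp9 or Mmp2. TGAGTCA on either strand, the consensus of the AP-1 dimers of Fos and Jun proteins, was found for 4 of these 8 genes (Mmp13, Mmp10, Mmp3 and Mmp12). It was found for 5.54% of the 16990 measured genes with a window. Its first base lay 35 bases before the start in Mmp13, 63 in Mmp10, 46 in Mmp3 and 44 in Mmp12. These genes are neighbours on chromosome 9, and as members of one gene family they are not independent observations. Among the 4 genes that hold TGAGTCA the log2 differences were -2.63, -1.45, -0.55 and -0.12, and a link between match and size was not tested. The last is that of Mmp12, whose control value was 0.46 above the gauge, which leaves little room for a lower value above the gauge. These differences are as deposited, and the gauge does not limit them. Timp1, at -1.66, held only TGAGTAA (2.55% of the measured genes with a window), starting at base 27 after the start. TATAAA, searched on the gene's strand only, was found in the same 4 genes (9.22% of the measured genes with a window). AGGAAG, a core bound by ETS factors, was found on either strand in 6 of the 8 (37.1%). GGGCGG on either strand was found in Mmp14, Timp1 and Timp2 (49.5%). GGGNNTTCC, a 9-letter form of the NF-kB motif, was found in 0 of the 8 (7.12%). Other forms of the NF-kB motif were not searched, so this does not show that NF-kB sites are missing. No match overlapped one of another motif in these windows. A match is a description of letters and says nothing on whether a factor was bound.

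**Figure D3:**
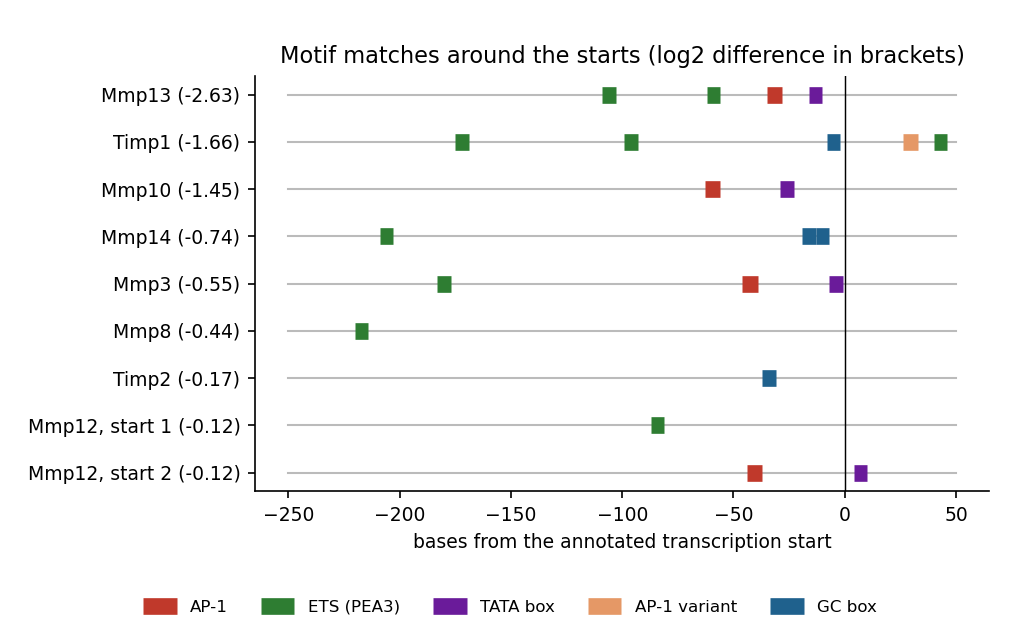
Motif matches (coloured blocks) in the promoter windows of the 8 genes for which a window was held, by distance in bases from the annotated start, ordered by log2 difference (ZAG minus control, in brackets). AP-1 blocks stand just before the starts of Mmp13, Mmp10, Mmp3 and Mmp12, whose differences run from -2.63 to -0.12.

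Of the 10 Mmp genes that stand in a row on chromosome 9, some differed several-fold, and others differed little or were below the gauge. In RefSeq's order (GRCm38.p6) the row runs Mmp13, Mmp12, Mmp1b, Mmp3, Mmp1a, Mmp10, Mmp8, Mmp27, Mmp20 and Mmp7. Mmp13 at one end (-2.63) adjoins Mmp12 (-0.12). Mmp10 (-1.45) lies between Mmp1a and Mmp8, which were below the gauge on both arrays, as were Mmp1b, Mmp20 and Mmp7. Mmp27, which is further along, was at 5.40 on the control array and 5.12 on the ZAG array, a difference of -0.28. Genes below the gauge, and Mmp12 at 3.63 on the control array, had little or no room for a lower value above the gauge. Among the genes with room, the differences were large for Mmp13 and Mmp10 and smaller for Mmp3 (-0.55) and Mmp27. Genes of this row are similar in sequence, and how far their probes cross-react was not tested.

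Across the wider family, 27 genes were measured with Reck, a membrane-anchored MMP inhibitor, included. Of these 6 did not reach the gauge on either array. Of the 17 genes outside the 10, 11 were lower and 6 higher on the ZAG array, where 47.9% of all genes were lower. Their median log2 difference was -0.26 as deposited and 0 once values below the gauge were raised to it. Among them, 1 passed 2-fold in the lower direction and 0 in the higher direction. The former was Mmp19, a protease of basal keratinocytes and macrophages, at 6.73 on the control array and 5.60 on the ZAG array (-1.13, 2.18-fold lower). Mmp11, the stromelysin-3 gene of stromal fibroblasts, was at 4.89 and 4.08, and its 2 probes gave -0.74 and -0.89. Mmp25, a membrane-type gene of leukocytes, was at 3.80 on the control array and just below the gauge, at 3.15, on the ZAG array, at least 1.55-fold lower. Among the inhibitor genes outside the 10, Timp4 and Timp3 were higher on the ZAG array and Reck was lower. Timp4 was at 3.32 and 4.18, a difference of 0.86 that starts close to the gauge, and Timp3, the inhibitor that is bound to matrix, was at 7.21 and 7.40 (0.20). Reck was at 5.40 and 5.12 (-0.29). The remaining family genes above the gauge on either array (Mmp16, Mmp17, Mmp23, Mmp24, Mmp27 and Mmp28) had log2 differences between -0.42 (Mmp28) and 0.31 (Mmp17).

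**Figure D4:**
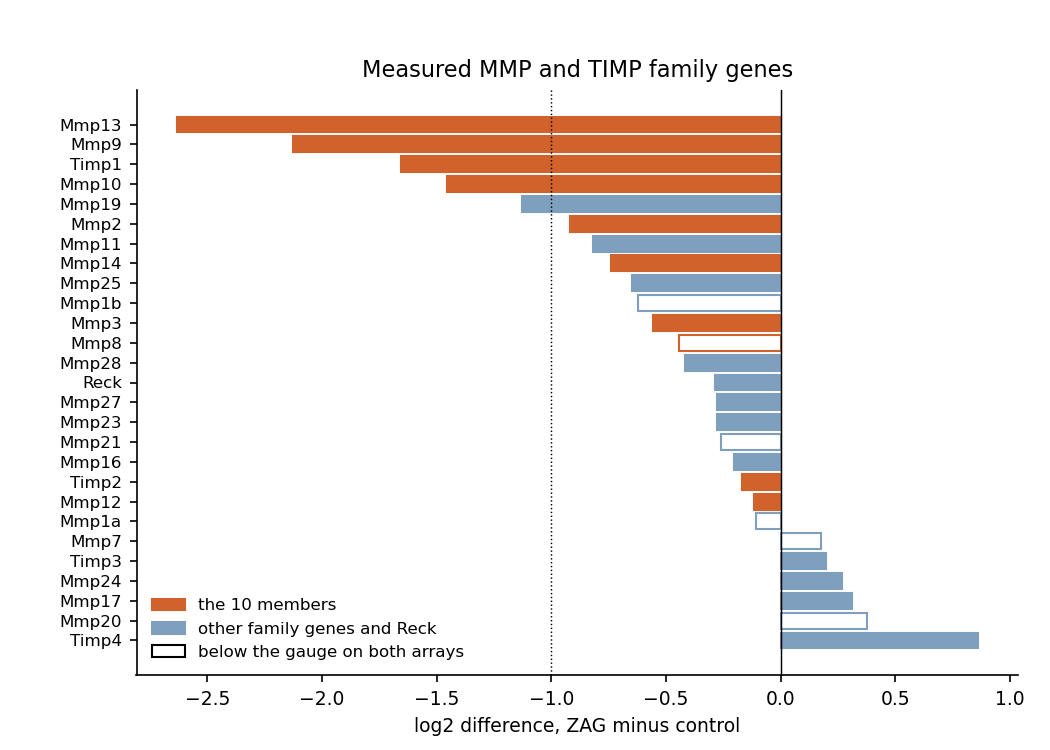
Log2 difference (ZAG minus control) of the 27 measured MMP and TIMP family genes, 1 array per group. The 10 members are orange, other family genes and Reck blue, genes below the gauge on both arrays hollow, and the dotted line marks 2-fold lower. The bars run from -2.63 (Mmp13) to 0.86 (Timp4), with Mmp19 the only blue bar past the dotted line.

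Genes that activate or bind MMPs were mostly lower too. In a list of 29 measured genes, 23 were lower and 6 higher, 3 were at least 2-fold lower, and the median log2 difference was -0.38. For this list and those that follow, the shares over all genes were 47.9% lower and 0.609% at least 2-fold lower. The lists were chosen with earlier results of these data known, so their counts are descriptions. Plaur, the receptor that holds urokinase at the cell surface, was at 5.70 on the control array and 3.80 on the ZAG array, a difference of -1.90 (3.73-fold lower). Its ligand gene Plau differed by -0.53, and plasminogen (Plg), the substrate of urokinase, was below the gauge on both arrays. Lcn2, the gene of a lipocalin that forms a complex with MMP9, was at 6.76 and 5.75 (-1.01, 2.01-fold lower), and the epidermal kallikrein gene Klk6 differed by -1.02. Furin, the gene of the convertase that activates MMP14, differed by -0.61, and Lrp1, the receptor that clears MMP and TIMP complexes, by -0.90. Bsg, whose product is known to induce MMPs in neighbouring fibroblasts, differed by 0.13, less than the SD between probes. Of 17 related ADAMTS protease genes 14 were lower, with 0 at least 2-fold lower and a median of -0.22. In that list Adamts4, an aggrecanase gene, differed by -0.88 and Adamts1 by -0.83.

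Of 23 measured genes for matrix substrates 21 were lower, with a median of -0.52. The 2 that were at least 2-fold lower were Tnc, the gene of the wound matrix protein tenascin-C (9.30 and 7.19, a difference of -2.11), and Fn1, which encodes fibronectin (9.73 and 8.72, -1.01). The fibrillar collagen genes Col1a1 (-0.70) and Col3a1 (-0.46), the basement membrane collagen gene Col4a2 (-0.63) and the elastin gene Eln (-0.52) had smaller differences. Dcn (0.04) and Postn (-0.07) hardly differed.

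Cytokine genes known to induce MMPs included 6 of 22 measured genes that were at least 2-fold lower, with 18 lower in all and a median of -0.41. Il1b, the gene of interleukin-1 beta, was at 8.84 on the control array and 5.25 on the ZAG array (-3.59), while Il1a, the gene of the related interleukin-1 alpha, was at 5.51 and 5.39 (-0.11). Il19 and Il24, both below the gauge on the ZAG array, had differences of at least 4.33-fold and 2.94-fold, and Il33 was 3.26-fold lower. The EGF receptor ligand genes Epgn (-1.19) and Hbegf (-1.12) were lower and Tgfa (-0.04) hardly differed. Tnf was at 4.02 and below the gauge at 2.95, at least 1.80-fold lower, and Il6 was below the gauge on both arrays. Of 20 receptor genes for these cytokines, with the receptor antagonist gene Il1rn counted among them, 18 were lower (median -0.52). The oncostatin M receptor gene Osmr (-1.11) was the 1 that was at least 2-fold lower. Il1r1, the signalling receptor of interleukin-1, differed by -0.57.

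Transcription factor genes of the AP-1, ETS, NF-kB and RUNX families, listed together with Stat3 and Cebpb from outside them, differed less. Of the 24 measured genes 17 were lower and 1 at least 2-fold lower, with a median of -0.20. Fos was at 5.55 on the control array and 4.04 on the ZAG array (-1.51). Its partner gene Jun was at 6.93 and 7.16 (0.22), Junb differed by -0.35 and Fosl2 by -0.56. Stat3 differed by -0.83. Fos is also an immediate early gene that responds to tissue handling, and the part of handling in these values was not tested.

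**Figure D5:**
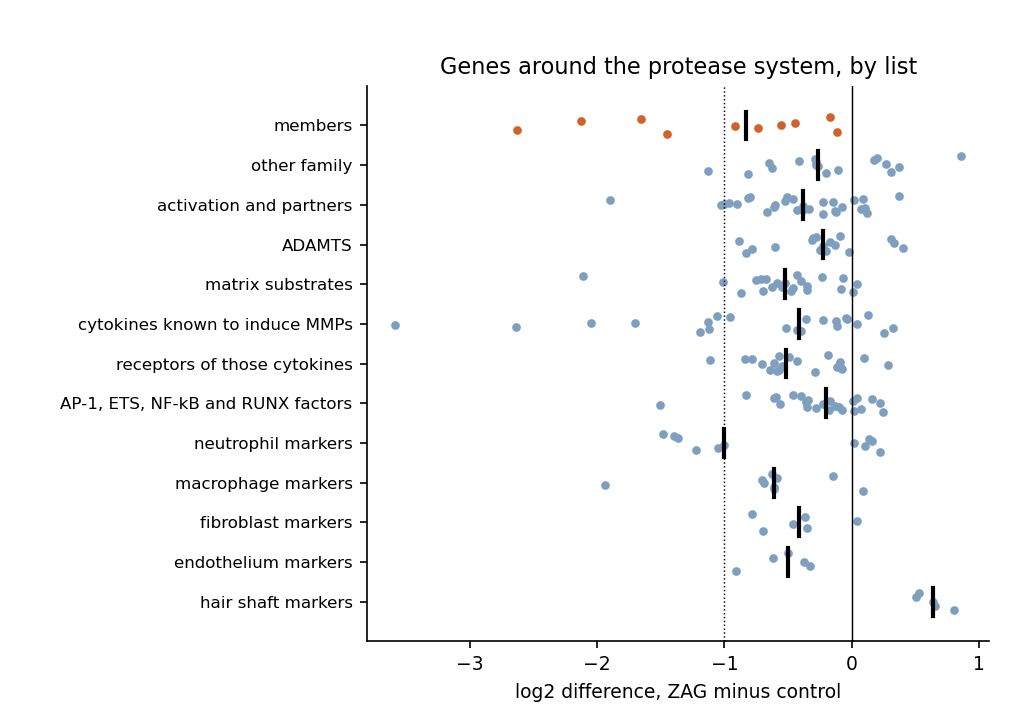
Log2 difference (ZAG minus control) of each measured gene in 13 lists (points), with the list median of values as deposited as a black bar and a dotted line at 2-fold lower. The 10 members have a median of -0.83 and the next 7 lists have medians between -0.52 and -0.20. The as-deposited median of the neutrophil markers (-0.9997) is lower than that of the members, and that of the macrophage markers is -0.61. The hair shaft markers lie at the other side of 0 with a median of 0.64.

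Markers of the cells that make these proteases also differed between the arrays, and in whole skin fewer cells of a type and less RNA per cell cannot be told apart. The epidermal keratin genes Krt14, Krt1 and Krt10, which define skin epithelium, had log2 values of 10.6 to 12.2 over both arrays. Beside Mmp9 and Mmp8, the 11 neutrophil markers had mean log2 values of 4.76 on the control array and 4.13 on the ZAG array. Of these markers 6 were lower and 5 higher. Their median log2 difference was -0.9997 as deposited, lower than the median of the 10 genes, and -0.42 once values below the gauge were raised to it. At least 2-fold lower were 4 of them (Cxcr2, Csf3r, S100a8 and S100a9), while the granule and lineage genes Ly6g, Ngp, Camp and Elane did not reach the gauge on either array. S100a8 and S100a9 are made by stressed keratinocytes as well. Beside Mmp12, the 9 macrophage markers had means of 7.36 and 6.71 and a median difference of -0.61. Of these 8 were lower and 1, Cd14 (-1.94), at least 2-fold lower. Beside Mmp2, Mmp14, Timp1 and Timp2, the 6 fibroblast markers had means of 10.1 and 9.63 and a median difference of -0.41, with 5 lower and 0 at least 2-fold lower. The suprabasal keratinocyte markers Krt1, Krt10 and Dsg1a had a median of 0.01, and the basal markers Krt14 and Col17a1 differed by -0.73 and -0.48.

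Endothelial markers (5 of 5 lower, median -0.50) and mast cell markers (6 of 6 lower, median -0.64) were lower on the ZAG array. Of the 5 measured T cell markers 2 were lower and 2 higher, with a median of 0. The largest differences among them were those of Cd4 (-1.06) and Cd3g (0.72). Markers of hair shaft (5 of 5 higher, median 0.64), skeletal muscle (4 of 4 higher, median 0.60) and fat (4 of 4 higher, median 0.50) were higher. Marker levels thus differed between the arrays in both directions, and their part in the differences of the 10 genes was not tested.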

How the data were processed

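Affymetrix arrays of biotin-labelled sense cDNA from skin RNA gave 1 deposited column per group. The deposited values are taken as log2 signal, from their range of 0.866 to 13.2; the sources used here do not give the authors' normalization and software. The platform annotation gave 1 symbol for 23521 of 33793 probes, several for 1814 and none for 8458. Probes with 1 symbol were averaged by gene (22180 genes), and the symbols of all 10 members matched RefSeq's (GRCm38.p6). The difference was ZAG minus control as deposited. For counts of 2-fold genes, values below the gauge were raised to it on both arrays; "at least" marks a fold from that floor. Arrays numbered 1 per group, which limits the precision, and no p-value was computed.

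The 10 genes and all gene lists were chosen with earlier results of these data known. Every member is named. From each list, the rule for naming was up to 4 genes each way with the largest differences after the floor, and the direct partners of the members. It was followed only in part. Left out were, among others, Tmprss2 (0.37), Adamts20 (0.34), Il20rb (0.28) and Atf3 (0.25), which were higher. Pcsk5 (-0.96) and Pdgfrb (-0.84), which were lower, were left out too. Other list genes named (among them Il1a, Tgfa, Dcn, Postn, Junb, Jun, Fosl2, collagen and marker genes) were chosen after their values were seen. Of the listed genes, those without a probe of their own symbol were not used here. Promoter windows came from RefSeq (GRCm38.p6); motifs were chosen after the sequences were seen. The counting was tested on simulated data. Alternatives were median centring, quantile normalization, loess (span 0.3), the brightest probe, gauges at percentiles 90 and 99, a 1.5-fold threshold, and a filter at the median level of all genes without a floor. The software was Python 3.11.15 with pandas 2.3.3, numpy 2.4.6, matplotlib 3.10.9 and statsmodels 0.14.6.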

Additional observations from a re-analysis of the deposited data

How the results depend on the processing

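Rescaling did not turn any of the 10 differences. Choosing the brightest probe per gene could not change them, since each of the 10 genes had 1 probe. Median centring shifted every gene by the same amount. Under these settings, quantile normalization and loess all 40 log2 differences stayed below 0. No gene moved by more than 0.06, and the median over the 10 genes ran from -0.88 to -0.83. The number of members at least 2-fold lower was 4 under these settings, under a gauge at percentile 90 and with a filter at the median level in place of the floor, 3 with the gauge at percentile 99, where Mmp10 left, and 6 at 1.5-fold, where the looser threshold admits more genes by construction. For the same reason the number of other family genes counted as lower went from 1 to 3 at 1.5-fold. None of these settings counted a member as higher. Shares over all genes were not counted under the alternatives, so the counts under them have no such share beside them. No paired analysis was possible because each group has 1 array. Signal over background limits Mmp8, Mmp12 and, on the ZAG array, Mmp10 and Mmp13. No alternative bears on the difference between mice, for which these arrays hold no estimate.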

Other observations

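A probe annotated to both Mmp24 and BC029722, which the comparison leaves out because it has 2 symbols, was at 4.73 on the control array and 4.44 on the ZAG array. The probe with Mmp24 as its sole symbol was at 4.06 and 4.33, so the 2 probes differed in direction (-0.29 and 0.27).

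Among the 135 genes at least 2-fold lower after the floor, 94 had a RefSeq promoter window, and 9 of these (9.57%) held TGAGTCA, compared with 5.54% of the 16990 measured genes with a window. TATAAA was held by 30.9% of the 94 and 9.22% of the measured genes, AGGAAG by 59.6% and 37.1%, and GGGCGG by 38.3% and 49.5%. GGGNNTTCC was held by 3.19% and 7.12%. The 94 include Mmp13, Mmp10 and Timp1, these shares were not tested, and genes of one family share promoter letters by descent.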
